A study of Homo sapiens with 44 samples.

Results

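The D-type cyclins, their partner kinases, 3 inhibitors of those kinases and the retinoblastoma gene RB1 were followed in human acute myeloid leukemia (AML) cell lines after RNA interference against 1 of the GSK-3 kinase genes, GSK3A (alpha form) or GSK3B (beta form). The 9 genes are CCND1, CCND2, CCND3, CDK4, CDK6, CDKN1B, CDKN2C, CDKN2D and RB1. They were taken as the probe sets whose single gene symbol in the platform annotation is one of these names, which gave 13 of 22277 probe sets and 8 of the 9 genes. CDKN2C, which encodes the kinase inhibitor p18, had no such probe set and was not analysed here. HL-60 is a promyelocytic line, THP-1 and MOLM-14 are monocytic lines with a rearranged KMT2A gene, and U937 is a monocytic line. Each line carried hairpin 5 or hairpin 6 against GSK3A (2 arrays each), hairpin 1 or hairpin 2 against GSK3B (2 arrays each) or a scrambled control hairpin (3 arrays). This makes 11 arrays per line and 44 in all, with 16 GSK3A, 16 GSK3B and 12 control arrays. All groups, controls included, were infected and then kept in puromycin at 1 µg per mL from 48 h after infection, and RNA was taken 48 h later. The labels call the replicates biological and give nothing further on separate cultures, so p-values cover the spread among these arrays, which may be technical. The labels also state that the loss of both proteins was checked by western blot.

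D-type cyclins bind CDK4 or CDK6 in the G1 phase of the cell cycle, and the active kinase phosphorylates the RB1 protein, which then releases E2F factors that drive genes of DNA replication. CDKN2D (p19) belongs to the INK4 inhibitors, which bind CDK4 and CDK6 themselves, and CDKN1B (p27) binds whole cyclin and kinase complexes. GSK3 is known to phosphorylate D cyclin proteins and mark them for destruction, and beta-catenin, another of its substrates, can act on D cyclin genes. Arrays read transcripts only, so protein turnover of the cyclins is outside these data. Blood cells make mostly CCND2 and CCND3, and many monocytic cells raise inhibitor genes as they stop dividing and mature.

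Values are deposited intensities, a linear scale on which the 44 array medians lay between 18.95 and 22.9 and the upper quartiles between 139 and 151. Changes are log2 differences after adding 16 to each intensity and quantile normalization, which makes the change of a dim gene smaller than the change of its intensity. After ± stands the limma fit's standard error, or the SD where so named, and a gene was called at a Benjamini-Hochberg adjusted p under 0.05 over 22215 probe sets. Each gene is described by its brightest probe set unless another is named, and intensities of different probe sets are not set against each other. GSK3B hairpins changed their own target by −1.56 ± 0.05 over the lines (adjusted p = 1.9e-18), from −1.01 in THP-1 to −1.97 in MOLM-14. GSK3A fell by only 0.09 ± 0.03 over the lines with its own hairpins (limma, adjusted p = 0.0204), with HL-60 alone called at −0.20 (adjusted p = 0.0163), so the "GSK3A" groups rest on the labels more than on the transcript. Of 10 measured myeloid markers 9, 8, 5 and 7 lay above the array median on every control array of HL-60, of THP-1, of MOLM-14 and of U937, and none of the T-cell, B-cell or erythroid markers did. COL1A1 did so in HL-60 and U937, and KRT18 in MOLM-14. Within 1 line, fewer cells with a transcript and less of it per cell cannot be told apart.

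Positions on GRCh38.p14, from the RefSeq gene table, are chromosome 6, 41934933 to 42050035 for CCND3, chromosome 12, 4273762 to 4305353 for CCND2, and chromosome 11, 69641156 to 69654474 for CCND1. CDK4 lies on chromosome 12 at 57747727 to 57752310 and CDK6 on chromosome 7 at 92604921 to 92836573. CDKN1B lies on chromosome 12 at 12717368 to 12722369, CDKN2D on chromosome 19 at 10566460 to 10568979, and RB1 on chromosome 13 at 48303751 to 48481890. Promoter windows of 250 bases before and 50 after a RefSeq start were held for 7 of the 9 genes, CCND1 and CCND2 being those without. The windows of CCND3, CDKN2D and CDK4 are shown because CCND3 and CDKN2D rose together in HL-60 and CDK4 fell with 1 of the hairpins. They are written 5′ to 3′ on the gene's strand (minus in all 3), and capitals mark matches, on either strand, to CACGTG (the E box bound by MYC among others), TTTGGCGC, TTTCCCGC or TTTCGCGC (E2F letters), CTTTGAT or CTTTGAA (letters bound by the TCF/LEF partners of beta-catenin), GTAAACA (forkhead letters) and CCAAT (the CCAAT box). In the windows shown no match overlaps another.
CCND3 promoter, chr6:41941759-41942058: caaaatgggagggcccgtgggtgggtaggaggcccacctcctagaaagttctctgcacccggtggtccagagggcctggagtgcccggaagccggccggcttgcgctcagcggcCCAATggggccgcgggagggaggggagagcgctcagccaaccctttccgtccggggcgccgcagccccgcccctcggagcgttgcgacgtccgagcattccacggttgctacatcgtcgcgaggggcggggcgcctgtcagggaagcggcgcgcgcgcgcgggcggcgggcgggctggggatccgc
CDKN2D promoter, chr19:10568930-10569229: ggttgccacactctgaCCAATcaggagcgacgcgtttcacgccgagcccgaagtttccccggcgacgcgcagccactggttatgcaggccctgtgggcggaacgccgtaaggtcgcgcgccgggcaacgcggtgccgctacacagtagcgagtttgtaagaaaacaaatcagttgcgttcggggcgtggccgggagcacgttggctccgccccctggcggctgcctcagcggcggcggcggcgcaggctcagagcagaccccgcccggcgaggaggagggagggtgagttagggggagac
CDK4 promoter, chr12:57752261-57752560: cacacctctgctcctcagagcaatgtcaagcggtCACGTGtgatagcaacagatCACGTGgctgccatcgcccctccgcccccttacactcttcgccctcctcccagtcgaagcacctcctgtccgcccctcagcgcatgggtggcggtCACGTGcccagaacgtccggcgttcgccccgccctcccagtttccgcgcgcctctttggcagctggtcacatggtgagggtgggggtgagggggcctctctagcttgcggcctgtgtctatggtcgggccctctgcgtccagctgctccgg
The CDK4 window holds 3 E boxes, where 7.26% of 35116 windows hold at least 1. A window of CDK6 holds 1 E box, and so do windows of CDKN2C. The CCND3 and CDKN2D windows shown each hold 1 CCAAT box (34.6% of windows), and CDKN1B's window holds 3. Another start of CCND3 has 1 forkhead match (3.42% of windows), and none of the members' windows has a match to the E2F letters (2.74%) or the TCF/LEF letters (6.86%). RB1's only window, chromosome 13 at 48476200 to 48476499, belongs to a start inside the gene. The bases around the beginning of RB1 at 48303751 were therefore not searched. A match describes the letters in a window and shows neither binding nor its absence.

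In scrambled control cells the lines differed in 6 of the 8 genes. Control levels differed between the lines for 10 of 13 probe sets by a moderated F-test, against 61.1% of all probe sets. The brightest probe sets of CDK6 and CCND1 were not called, but the dimmer one of CCND1 was (F-test, adjusted p = 0.0365). The widest difference was in CCND2. Its intensity was 1512 to 1626 in MOLM-14, 1023 to 1147 in HL-60 and 856 to 904 in U937 controls, and 5.46 to 7.91 in THP-1 controls, near the array lower quartiles of 7.57 to 8.28. Each step of that order was called: MOLM-14 lay 0.88 above U937 and 0.54 above HL-60 (adjusted p = 8.39e-04), and HL-60 lay 0.34 above U937 on the log2 scale (0.0318). All 3 lay above THP-1, by an amount that the added 16 limits and that is therefore not given as a fold. THP-1 is thus the line in which CCND2 read among the dimmest probe sets of the array.

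CCND3 was read in all 4 lines. Control means stood at 779 ± 61.5 for MOLM-14, 485 ± 13.1 for THP-1, 361 ± 25.5 for HL-60 and 316 ± 45.04 for U937 (SD, n = 3 each). MOLM-14 exceeded THP-1 by 0.68 and THP-1 exceeded HL-60 by 0.42 (adjusted p = 0.00719), while HL-60 and U937 differed by 0.20 (0.234), which did not pass. CDK4 followed the order MOLM-14 (1363 ± 12.7), U937 (1253 ± 38.02), HL-60 (1092 ± 31.1) and THP-1 (714 ± 62.2), with every neighbouring step called and the last, 0.61 on the log2 scale, the widest of them. RB1 was alike within error in MOLM-14 (510.0 ± 18.6) and U937 (497 ± 21.8), which differed by 0.08 (0.386). THP-1 (379 ± 34.3) lay 0.36 below U937, and HL-60 (289 ± 28.1) lay 0.37 below THP-1, both called.

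CDKN1B had its highest control means in U937 (374 ± 65.4) and MOLM-14 (262 ± 58.1), which were not separated (0.45, adjusted p = 0.069), and lower ones in THP-1 (167 ± 21.4) and HL-60 (144 ± 0.87), which were not separated either (0.15, 0.57). CDKN2D read 38.5 ± 3.59 in HL-60, 37.6 ± 6.08 in MOLM-14, 31.4 ± 2.58 in U937 and 25.1 ± 5.30 in THP-1, and only HL-60 and MOLM-14 were called against THP-1 (0.55 and 0.43, adjusted p = 0.00231 and 0.02). Without the second THP-1 control array the F-test of CDKN2D was no longer called (0.0588). CDK6 control means ran from 39.7 to 55.8 and those of CCND1 from 10.3 to 18.4, below the array medians. Neither of these brightest probe sets was called by the F-test. CCND1 was called between MOLM-14 and U937 alone, at 0.36 (0.0356), with 15.9 to 23.1 in MOLM-14 against 10.03 to 10.5 in U937. By pairs of lines, called probe sets numbered 7 of 13 for HL-60 against THP-1 (44% of all probe sets), 6 for HL-60 against MOLM-14 (36%) and 5 for HL-60 against U937 (38.6%). They numbered 9 for THP-1 against MOLM-14 (37%), 8 for THP-1 against U937 (41.9%) and 6 for MOLM-14 against U937 (37.6%).

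**Figure D1:**
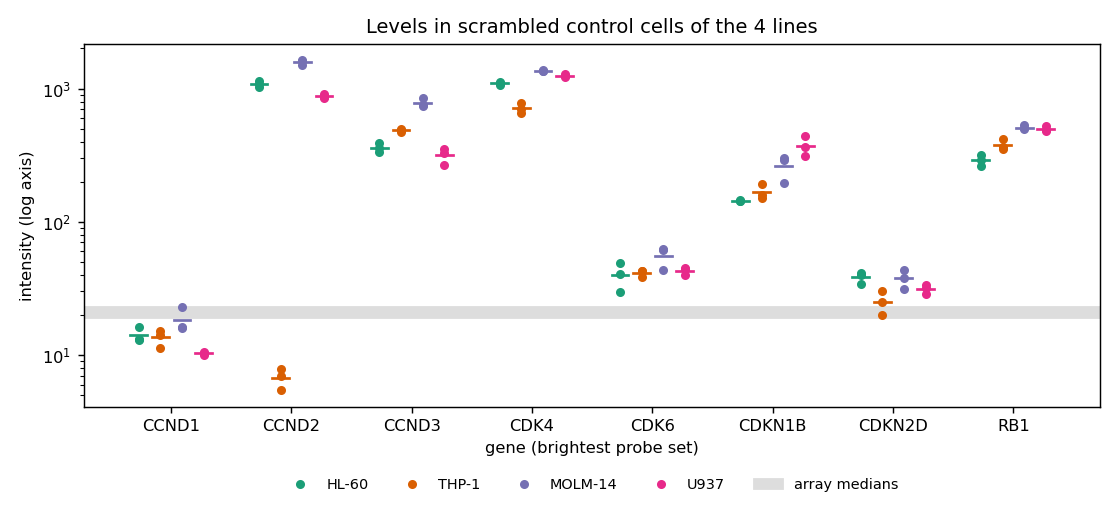
Deposited intensity (log axis) of the brightest probe set of each gene in scrambled control cells, with 1 point per array, 3 arrays per line and a short bar at the mean. The grey band spans the array medians of 18.95 to 22.9. CCND2 lies far below the band in THP-1 and far above it in the other lines, and CCND1 lies at or below the band in all 4 lines except for 1 MOLM-14 array at 23.1.

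With GSK3A hairpins, averaged over hairpins and lines, CCND3, CDKN2D and RB1 rose and CCND2 and CDK4 fell. Called probe sets numbered 7 of 13, against 16.9% of all probe sets, with 3 higher (8.57% of all) and 4 lower (8.35% of all). Of the 4 lower ones 3 are CCND2. CCND3 changed by 0.39 ± 0.06 (limma, adjusted p = 1.53e-05), RB1 by 0.16 ± 0.03 (5.18e-04) and CDKN2D by 0.27 ± 0.07 (0.00548), while CCND2 fell by 0.28 ± 0.06 (8.52e-04) and CDK4 fell by 0.10 ± 0.03 (0.0251). CDK6 (−0.12 ± 0.08, adjusted p = 0.351), CCND1 (0.05 ± 0.06, 0.721) and CDKN1B (0.04 ± 0.09, 0.839) did not pass, with 95% intervals of −0.28 to 0.04, −0.08 to 0.17 and −0.14 to 0.23. The median change was 0.05 over the 8 genes and 0.00 over all 12165 genes. The CDK4 call was lost without any of 5 single arrays, at −0.08 to −0.09 (adjusted p = 0.0501 to 0.0651). These were the first THP-1 control array, the first array of hairpin 5 in THP-1 or MOLM-14, and the second array of hairpin 5 or 6 in U937. It was also lost without the line MOLM-14, at −0.01 (0.901).

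With GSK3B hairpins no member was called over the lines, by limma, against 2.54% of all probe sets. Of the 13 probe sets 3 had an unadjusted p under 0.05. These were CCND3 (0.20 ± 0.06, adjusted p = 0.0639), CCND2 (0.16 ± 0.06, 0.185) and CDK4 (0.06 ± 0.03, 0.425), and the median over the 8 genes was 0.07 beside 0.00 over all genes. With the plate columns as a block CCND3 (0.22, 1.23e-04) and CDKN2D (0.15, 0.0373) were called. The targets share their control arrays, so their difference was taken directly, without controls. GSK3A minus GSK3B hairpins was called for 6 of 13 probe sets (17.6% of all). CCND2 was lower with GSK3A hairpins by 0.44 ± 0.05 on the log2 scale (adjusted p = 6.47e-07) and CDK4 by 0.16 ± 0.03 (1.15e-04), CCND3 was higher by 0.19 ± 0.05 (0.0133) and RB1 by 0.13 ± 0.03 (0.00241), and CDKN2D, at 0.14 ± 0.06 (0.128), did not pass, though it did without the second MOLM-14 array of hairpin 5 (0.17, 0.0417) and with the plate columns as a block (0.14, 0.00744). Without HL-60 the CCND3 difference was 0.09 (0.547) and that of RB1 0.07 (0.269), and without MOLM-14 that of CDK4 was −0.09 (0.0516).

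Hairpins of the same target differed in CCND3 and CDK4. Hairpin 5 had 6 of 13 probe sets called over the lines (17.8% of all) and hairpin 6 had 3 (13.1%). Without the second U937 array of hairpin 6, that hairpin also had CCND2 (−0.25, 0.0123), CCND3 (0.24, 0.0171) and CDKN2D (0.27, 0.0391) called. For the GSK3B hairpins the counts were 1 with hairpin 1 (3.55%) and 2 with hairpin 2 (4.77%). Hairpin 5 minus hairpin 6 called 2 of 13 (13.3% of all), CCND3 at 0.44 ± 0.08 (limma, adjusted p = 1.39e-04) and CDK4 at 0.30 ± 0.04 (2.41e-06). GSK3B hairpin 1 minus hairpin 2 also called 2 of 13 (8.35% of all), CCND3 at 0.60 ± 0.08 (3.75e-06) and CDK4 at −0.16 ± 0.04 (0.00837). The count for hairpin 5 minus hairpin 6 is close to the share of all probe sets. None of these differences uses a control array. With the plate columns as a block, hairpin 6 also had CCND2 (−0.19, 0.015), CCND3 (0.19, 9.12e-04), CDKN2D (0.24, 9.08e-04) and CDKN1B (0.17, 0.0249) called, and GSK3B hairpin 1 had CDKN2D (0.26, 0.00145). CDKN1B and CCND2 were then called for hairpin 5 minus hairpin 6 (−0.24 and −0.20, 0.00335 and 0.0213), and CDKN2D and CCND2 for GSK3B hairpin 1 minus hairpin 2 (0.23 and −0.18, 0.00547 and 0.0448).

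**Figure D2:**
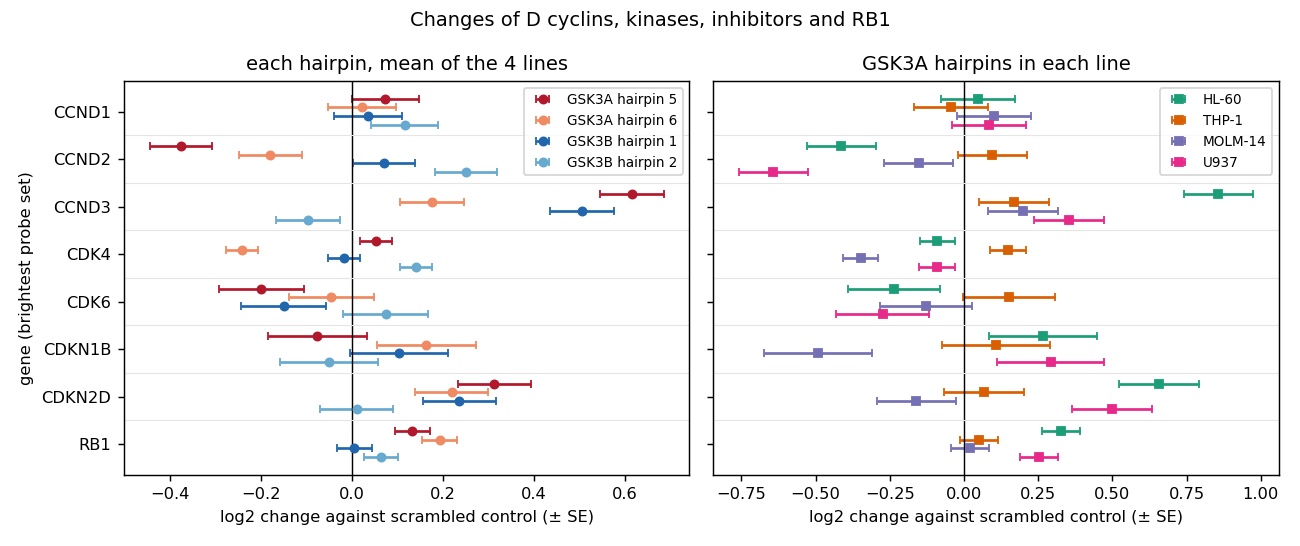
Log2 change against scrambled control, with bars of ± 1 standard error, for the brightest probe set of each gene: each hairpin as the mean of the 4 lines (left) and the GSK3A hairpins in each line (right). CCND3 stands at 0.61 with GSK3A hairpin 5 and 0.51 with GSK3B hairpin 1, against 0.17 and −0.10 with the other hairpin of each target, and CDK4 stands at −0.24 with GSK3A hairpin 6, against 0.05 with hairpin 5.

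CCND3, the D cyclin read in all lines, rose most in HL-60. There its intensity was 849.8 and 859 with GSK3A hairpin 5, 516 and 511 with hairpin 6, 697 and 715 with GSK3B hairpin 1, and 305 and 314 with GSK3B hairpin 2, against 358, 387 and 337 with the control hairpin. Both GSK3A hairpins and GSK3B hairpin 1 lay above every control array, and GSK3B hairpin 2 lay below all of them. This is 236.8% of the control mean with hairpin 5, 142.4% with hairpin 6, 195.7% with GSK3B hairpin 1 and 85.8% with GSK3B hairpin 2. The changes were 1.21 ± 0.14 (limma, adjusted p = 6.64e-07), 0.50 ± 0.14 (0.0447), 0.95 ± 0.14 (1.58e-04) and −0.21 ± 0.14 (0.718). Within HL-60 hairpin 5 exceeded hairpin 6 by 0.71 (0.0037), and GSK3B hairpin 1 exceeded hairpin 2 by 1.15 (1.11e-05).

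In MOLM-14 and THP-1, too, hairpin 5 read above hairpin 6 and GSK3B hairpin 1 above hairpin 2 on every array, by less than in HL-60. In MOLM-14 CCND3 read 1116 and 976 with hairpin 5, 733 and 726 with hairpin 6, 1151 and 1013 with GSK3B hairpin 1, and 646 and 693 with GSK3B hairpin 2, against 752, 735 and 849 with the control hairpin. In THP-1 the values were 667 and 641 with hairpin 5, 440.3 and 491 with hairpin 6, 576 and 652 with GSK3B hairpin 1, and 503 and 493 with GSK3B hairpin 2, against 490.0, 470.5 and 495 with the control hairpin. In both lines hairpin 5 and GSK3B hairpin 1 lay above every control array. Hairpin 5 minus hairpin 6 was 0.47 in MOLM-14 (adjusted p = 0.0597) and 0.45 in THP-1 (0.144), and neither passed. The MOLM-14 value passed without the last U937 control array or any U937 array of hairpin 5 or 6, which enter only through the spread (0.024 to 0.0458). Only hairpin 5 in MOLM-14 was called against control (0.44 ± 0.14, adjusted p = 0.0374), as was the difference of the GSK3B hairpins there (0.68, 0.00914), which was lost without the first array of hairpin 1 (0.61, 0.130) or of hairpin 2 (0.61, 0.0593).

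In U937 the arrays of each hairpin divided by plate column. The second array of every hairpin, and the third control array, were run in plate columns 7 to 11 and the others in columns 1 to 6, per the array names in the labels. CCND3 read 523 and 338 with hairpin 5, 467 and 317 with hairpin 6, 416 and 331 with GSK3B hairpin 1, and 333 and 275 with GSK3B hairpin 2, against 328, 355 and 267 with the control hairpin. In all 5 groups the arrays of columns 7 to 11 were lower, by a median of 0.33 on the log2 scale. The GSK3A change was 0.35 ± 0.12 (limma, adjusted p = 0.0901) and was not called, while with the plate columns as a block it was 0.42 (1.23e-04). It was also called without the second array of hairpin 5 (0.50, 0.00788) or of hairpin 6 (0.49, 0.0149).

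Over the lines the CCND3 rise with GSK3A hairpins was 0.45 (adjusted p = 0.133) within columns 1 to 6 alone and 0.36 (0.613) within columns 7 to 11 alone, and 0.41 (1.48e-09) with the columns as a block. Without HL-60 it was 0.24 and just missed the test (0.0501). With the hairpin as a random block, where a block is the arrays of 1 hairpin in 1 line, it was still called (limma, adjusted p = 0.0461). That fit used a single correlation of 0.09 for all probe sets, so arrays of a block still counted nearly singly. The 2 hairpins of a target are thus not the replicates of that test. The change with GSK3B hairpins was not called in the main fit (0.20, limma, adjusted p = 0.0639) or with the hairpin as a random block (0.887). It averages 2 hairpins that differed, hairpin 1 being the higher. It was called with the columns as a block, at 0.22 (1.23e-04), and without any of 7 single arrays (adjusted p = 0.0236 to 0.0471). These were the third MOLM-14 control array and, in U937, the second array of either GSK3B hairpin and any array of hairpins 5 and 6, the last 4 of which enter only through the estimate of the spread.

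CCND2, the other D cyclin of blood cells, fell with GSK3A hairpins in U937 and HL-60. In U937 it read 393 and 625 with hairpin 5 and 487 and 708 with hairpin 6, and with GSK3B hairpins 819.8 and 906 with hairpin 1 and 1119.6 and 1086 with hairpin 2, against 866, 856 and 904 with the control hairpin. All 4 GSK3A arrays lay below all controls, at 63.2% of their mean. The GSK3A change was −0.64 ± 0.12 (limma, adjusted p = 9.82e-04), with −0.76 ± 0.14 (0.00115) for hairpin 5 and −0.52 ± 0.14 (0.0281) for hairpin 6. Within columns 1 to 6 alone it was −0.91 (0.0257), and within columns 7 to 11 alone nothing among the members was called.

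In HL-60 CCND2 was low with hairpin 5 alone. It read 666 and 655 with hairpin 5 and 925 and 1038 with hairpin 6, and 901 and 1071 with GSK3B hairpin 1 and 1273 and 1337 with GSK3B hairpin 2, against 1147, 1078 and 1023 with the control hairpin. Hairpin 5 lay below every control array and hairpin 6 overlapped them. The target as a whole was called at −0.41 ± 0.12 (limma, adjusted p = 0.0249), hairpin 5 at −0.70 ± 0.14 (9.57e-04), and hairpin 6, at −0.13 ± 0.14 (0.824), was not. That target call was lost without any of 5 single HL-60 arrays, namely the first or second control array, either array of hairpin 5 or the first array of hairpin 6, at adjusted p = 0.0596 to 0.121. The difference between the hairpins was −0.56 ± 0.15 (0.022), and it was lost without any 1 of the 4 arrays that form it, at 0.058 to 0.233.

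In MOLM-14 all 4 GSK3A arrays read 1355 to 1391 and the 4 GSK3B arrays 1596 to 2171, against 1626, 1612 and 1512 with the control hairpin. The groups of GSK3A and control did not overlap, but the change of −0.15 ± 0.12 did not pass (limma, adjusted p = 0.512). In THP-1 the 4 GSK3A arrays read 6.92 to 9.03 and the 4 GSK3B arrays 8.78 to 10.5, against 5.46 to 7.91 with the control hairpin, all far below the array medians. GSK3B hairpin 2 raised CCND2 over the lines by 0.25 ± 0.07 (0.0318), a call lost without any of 11 single arrays (adjusted p = 0.052 to 0.0936). These were 7 of the 8 arrays of that hairpin, all but the second MOLM-14 one, and the control arrays HL-60 3, THP-1 1, U937 1 and U937 2. The other probe sets of CCND2, dimmer in every line that expressed it, also fell with GSK3A hairpins over the lines, at −0.38 ± 0.07 (3.42e-04) and −0.26 ± 0.08 (0.0202). Both were called in U937, at −0.69 (0.00449) and −0.61 (0.0184), and 1 of them in HL-60, at −0.50 (0.0344).

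CCND1, the D cyclin most used outside blood, stayed dim. Its brightest probe set read 10.03 to 41.4 over all 44 arrays and passed 25 only in MOLM-14, on 1 array of hairpin 5 (41.4) and 1 of GSK3B hairpin 2 (35.6), both in plate columns 7 to 11. Its other probe set read 5.48 to 21.1. Neither was called with either target over the lines. Without the first MOLM-14 array of hairpin 5, which leaves the one at 41.4, hairpin 5 was called over the lines (0.17, 0.0423).

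**Figure D3:**
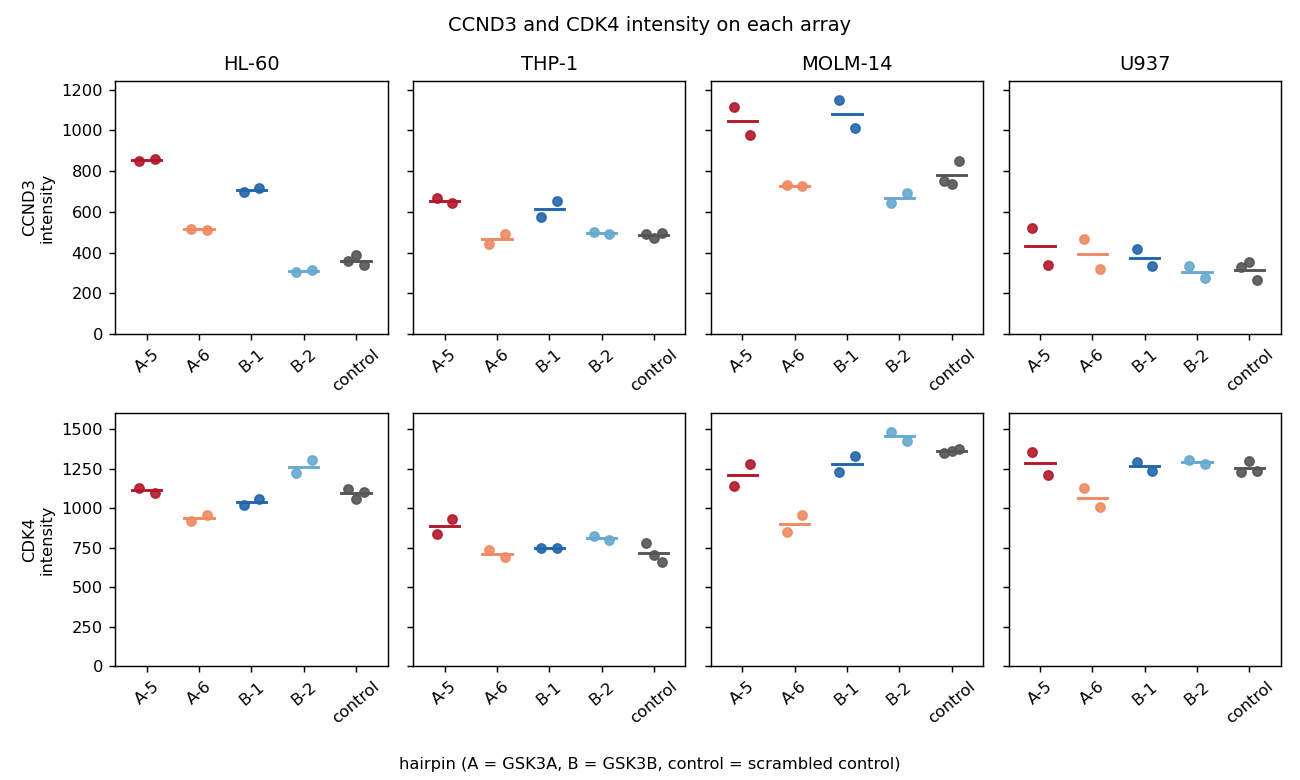
Deposited intensity of CCND3 (top) and CDK4 (bottom) on each of the 44 arrays, by line and hairpin, with a bar at the mean of each group (2 arrays per hairpin, 3 controls). In HL-60 CCND3 lies at 849.8 and 859 with GSK3A hairpin 5 and at 697 and 715 with GSK3B hairpin 1, against 337 to 387 in controls, and CDK4 is lowest with GSK3A hairpin 6 in HL-60, MOLM-14 and U937.

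Over the lines CDK4, the kinase that both CCND2 and CCND3 activate, fell with hairpin 6 and not with hairpin 5. By line, a fall of CDK4 was called for hairpin 6 in MOLM-14 alone. In MOLM-14 it read 847 and 957 with hairpin 6 and 1137 and 1278 with hairpin 5, against 1349, 1364 and 1375 with the control hairpin. Both hairpins lay below every control there, at 66.2% and 88.6% of the control mean. Hairpin 6 changed it by −0.54 ± 0.07 (limma, adjusted p = 1.16e-05) and hairpin 5 by −0.16 ± 0.07 (0.171), which gave −0.35 ± 0.06 (1.56e-04) for the target, the single member called with GSK3A hairpins in MOLM-14. In HL-60 hairpin 6 read 921 and 958 and hairpin 5 read 1126 and 1097, against 1119, 1058 and 1099 with the control hairpin. In U937 hairpin 6 read 1129 and 1004 and hairpin 5 read 1355 and 1211, against 1227, 1296 and 1235 with the control hairpin. Hairpin 6 lay below every control array in both lines, at −0.20 (0.144) and −0.23 (0.0765), neither of which passed.

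In THP-1, the line with the lowest CDK4, the position of the hairpins relative to control was shifted. Hairpin 5 read 838 and 932 and lay above the controls at 781, 704 and 658, while hairpin 6 read 736 and 689 and lay among them. Hairpin 5 changed CDK4 by 0.30 ± 0.07 (limma, adjusted p = 0.0195) and hairpin 6 by −0.01 ± 0.07. Hairpin 5 minus hairpin 6 was 0.31 in THP-1 (0.0244), 0.38 in MOLM-14 (0.0016), 0.23 in HL-60 (0.102) and 0.27 in U937 (0.074). The THP-1 difference was lost without the second array of hairpin 5 (0.22, 0.448) or either array of hairpin 6 (0.35 and 0.26, 0.0567 and 0.271), and the MOLM-14 one without the second array of hairpin 5 (0.29, 0.0510) or the first of hairpin 6 (0.26, 0.0726).

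GSK3B hairpin 2 moved CDK4 the other way, by 0.14 ± 0.04 over the lines (limma, adjusted p = 0.0176). It read 1221 and 1301 in HL-60, 825 and 799 in THP-1 and 1481 and 1425 in MOLM-14, above every control array of those lines, and 1304 and 1280.1 in U937, among the controls. The call was lost without the second HL-60 array of that hairpin (0.13, 0.0608) or the first THP-1 array (0.13, 0.0512). CDK6, the other D cyclin kinase, read 23.2 to 78.6 on all 44 arrays and was called with no target or hairpin over the lines. In U937 its 4 GSK3A arrays read 27.6 to 37.1 and lay below the controls of 39.9 to 44.97, a change of −0.27 ± 0.16 with an adjusted p of 0.461.

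**Figure D4:**
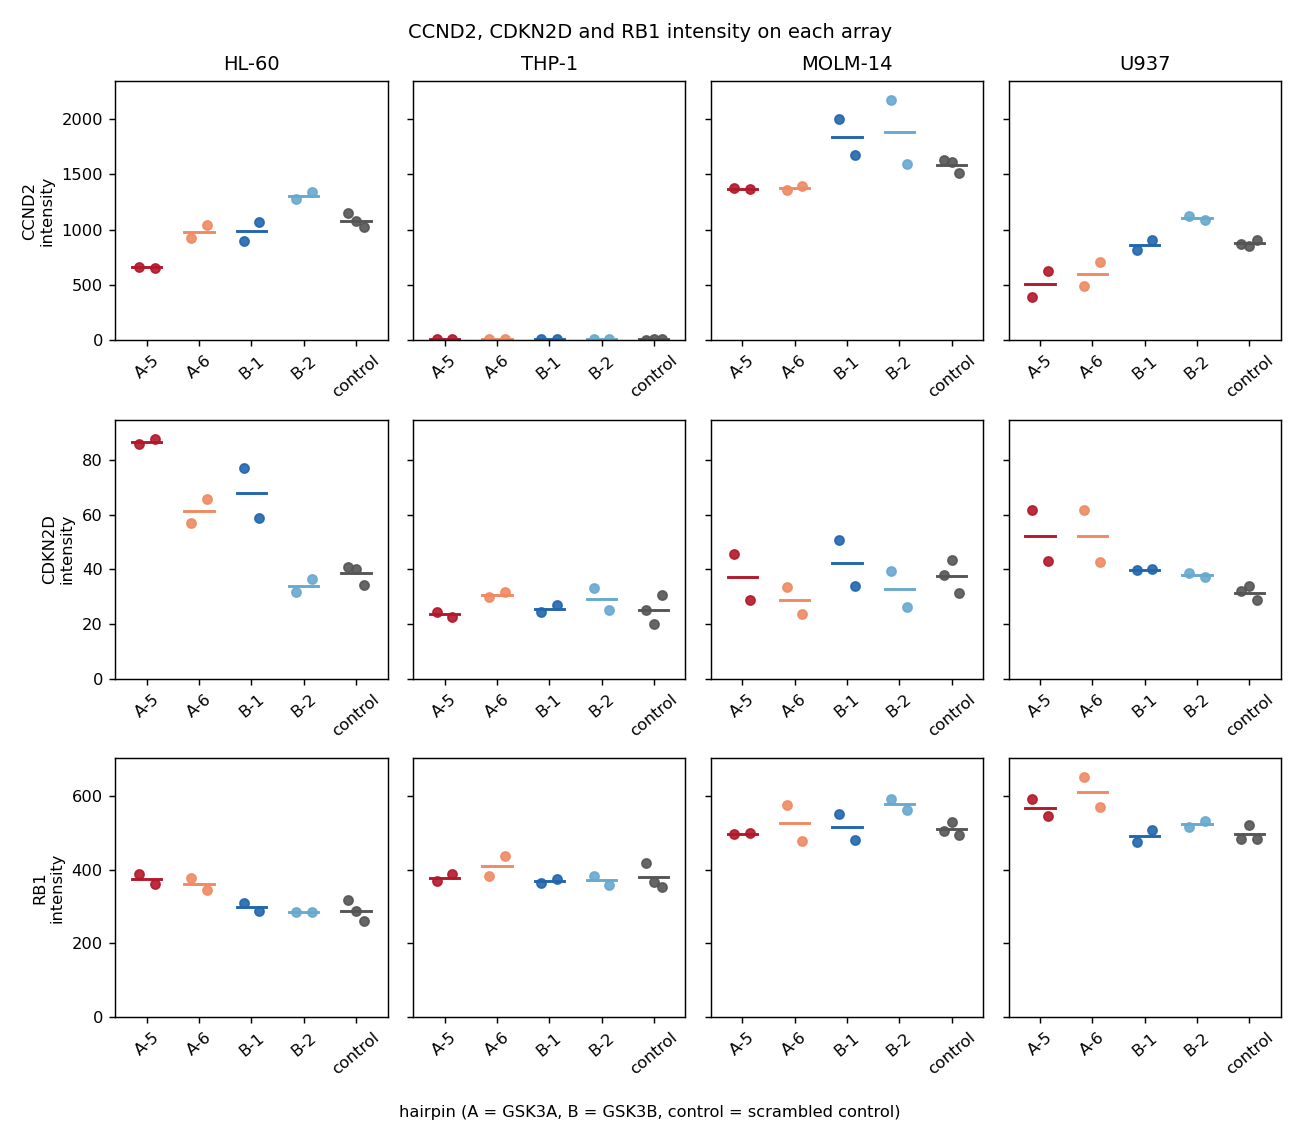
Deposited intensity of CCND2, CDKN2D and RB1 (top to bottom) on each of the 44 arrays, by line and hairpin, with a bar at the mean of each group (2 arrays per hairpin, 3 controls). GSK3A arrays lie below all controls for CCND2 in MOLM-14 and U937, and above all controls for CDKN2D and RB1 in HL-60 and U937, and CCND2 is near 0 on every THP-1 array.

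CDKN2D, the INK4 inhibitor p19, rose in the same lines in which CCND2 fell. In HL-60 it read 85.6 and 87.7 with hairpin 5 and 57.1 and 65.6 with hairpin 6, and 76.99 and 58.6 with GSK3B hairpin 1 and 31.6 and 36.3 with GSK3B hairpin 2, against 41.00, 40.1 and 34.4 with the control hairpin. All 4 GSK3A arrays and both of GSK3B hairpin 1 lay above every control, at 192.2% and 176.0% of the control mean. The GSK3A change was 0.66 ± 0.13 (limma, adjusted p = 0.0019), and that of GSK3B hairpin 1 was 0.57 ± 0.16 (0.0705), which did not pass. GSK3B hairpin 1 exceeded hairpin 2 in HL-60 by 0.69 (0.0164), a call lost without the first array of hairpin 1 (0.54, 0.248) or either array of hairpin 2 (0.62 and 0.75, 0.153 and 0.0604).

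In U937 CDKN2D read 61.6 and 42.9 with hairpin 5 and 61.6 and 42.8 with hairpin 6, and 37.2 to 40.03 on the 4 GSK3B arrays, against 31.97, 33.7 and 28.6 with the control hairpin. All 8 hairpin arrays lay above every control. The GSK3A change was 0.50 ± 0.13 (limma, adjusted p = 0.0271). It was lost without any 1 of the 3 control arrays or the first array of either GSK3A hairpin, at 0.40 to 0.53 (0.0705 to 0.124). THP-1 and MOLM-14 groups overlapped their controls, with changes of 0.07 ± 0.13 and −0.16 ± 0.13 that did not pass. The other CDKN2D probe set read 4.41 to 6.44 on all arrays, under the array lower quartiles, and was not called.

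CDKN1B, which encodes p27, was not called with any hairpin in any line. In MOLM-14 it read 173 and 166 with hairpin 5 and 240.2 and 139.9 with hairpin 6, against 289.5, 301 and 195 with the control hairpin. The GSK3A change there was −0.49 ± 0.18 (limma, adjusted p = 0.0794), and it was called without the third control array (−0.68, 0.0195), without the first array of hairpin 6 (−0.66, 0.0186) or with the plate columns as a block (−0.41, 0.00147). In HL-60 the 4 GSK3A arrays read 156 to 205 and lay above the controls at 143 to 145, a change of 0.27 ± 0.18 (0.523). Plate columns mattered more for this gene than for the others. Arrays of columns 7 to 11 were lower in MOLM-14 by a median of 0.56 and higher in U937 by 0.40, and those of CDKN2D were lower in MOLM-14 by 0.41. The part of the columns in each result was tested only through the blocked and within-column values.

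RB1, the substrate of the D cyclin kinases, rose with GSK3A hairpins in HL-60 and U937. In HL-60 it read 388 and 362 with hairpin 5 and 378 and 345 with hairpin 6, and 286 to 310.4 on the 4 GSK3B arrays, against 317, 289 and 261 with the control hairpin. The GSK3A arrays lay above all controls at 127.4% of their mean, a change of 0.33 ± 0.06 (limma, adjusted p = 0.00134), called for hairpin 5 (0.36, 0.00223) and hairpin 6 (0.30, 0.028) alike. In U937 it read 591 and 545 with hairpin 5 and 651 and 571 with hairpin 6, against 484, 522 and 485 with the control hairpin. The change was 0.25 ± 0.06 (0.0179), called for hairpin 6 (0.30, 0.0233) and not for hairpin 5 (0.21, 0.169). It was lost without the first control array (0.23, 0.115) or the first array of hairpin 5 (0.23, 0.0692) or hairpin 6 (0.21, 0.0778). Hairpins 5 and 6 did not differ beyond error over the lines, at −0.06 ± 0.04 with a 95% interval of −0.15 to 0.03. In THP-1 and MOLM-14 RB1 changed by 0.05 ± 0.06 and 0.02 ± 0.06, and its dimmer probe set, at 11.5 to 24.9, was called in U937 alone (0.21, 0.0366).

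By line, GSK3A hairpins called 5 of 13 probe sets in HL-60 (6.91% of all probe sets), 6 in U937 (4.83%), 1 in MOLM-14 (12.3%) and 0 in THP-1 (1.35%). In genes this is CCND3, CCND2, CDKN2D and RB1 in HL-60, CDK4 in MOLM-14, and CCND2, CDKN2D and RB1 in U937. In THP-1, 2 of 13 had an unadjusted p under 0.05 by limma, 1 of them CDK4 (0.15 ± 0.06, adjusted p = 0.373). GSK3B hairpins called 0 in each line, against 0.693% in HL-60, 0.149% in U937, 0.977% in MOLM-14 and 0.0495% in THP-1, with 1, 0, 2 and 1 probe sets at an unadjusted p under 0.05. With the hairpin as a random block, 3 of these 8 gene calls remained, CCND2 in U937 (0.0403), CDKN2D in HL-60 (0.0484) and RB1 in HL-60 (0.012).

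Whether the GSK3A change differed between the lines was tested itself. A moderated F-test called 4 of 13 probe sets (5.57% of all), for CDK4 (adjusted p = 0.00317), CDKN2D (0.0186), CCND2 (0.0216) and CCND3 (0.0252), but not for RB1 (0.0698) or CDKN1B (0.162). For GSK3B hairpins it called 0 of 13 (0.176% of all), and none had an unadjusted p under 0.05. Without THP-1, where CCND2 was too dim for a fall to be read, none of the 4 was called: CCND2 had an adjusted p of 0.444, CCND3 of 0.142, CDK4 of 0.13 and CDKN2D of 0.0698. Without HL-60 only CDK4 was called (0.0127), and without MOLM-14 only CCND2 (0.0307) and CDKN2D (0.044). Among single arrays, CCND3 was lost without any of 6 single HL-60 arrays, namely the first or the third control array or any array of hairpin 5 or 6 (0.0517 to 0.0919), CCND2 without the first THP-1 control array (0.0581) and CDKN2D without the second MOLM-14 control array (0.0594). RB1 was called without the first HL-60 control array (0.0319), the first MOLM-14 array of hairpin 6 (0.0319) or the second U937 array of hairpin 6 (0.0425). CDKN1B (0.0013) and RB1 (0.011) were also called with the plate columns as a block. All 4 were lost with the hairpin as a random block (0.281 to 0.945).

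Among genes that act with the D cyclins, few were called over the lines outside the replication genes, and more in MOLM-14. Of 11 measured later G1 cyclins, kinases and other inhibitors, 1 rose and 1 fell with GSK3A hairpins over the lines, where 10.4% of all genes rose and 9.72% fell. CDKN1A, which encodes the inhibitor p21, rose by 0.37 ± 0.07 (limma, adjusted p = 1.75e-04) and CCNE1, a cyclin that follows the D cyclins, fell by 0.50 ± 0.14 (0.009), while CDK7 of the CDK-activating kinase was at −0.07 ± 0.03 (0.0835). Of 10 E2F factors, their partners and pocket proteins, TFDP2, an E2F partner, fell by 0.40 ± 0.05 (2.39e-06), and TFDP1 (−0.11 ± 0.04, 0.0688) and E2F8 (−0.25 ± 0.10, 0.11) did not pass. Of 13 ubiquitin ligase parts for D cyclins or p27, CUL4A fell by 0.44 ± 0.04 (2.23e-09) and CUL1 by 0.18 ± 0.04 (7.83e-04), with CKS1B at −0.33 ± 0.13 (0.099). Of 8 transcription regulators of these genes, MYB fell by 0.34 ± 0.05 (1.34e-05) and MYC by 0.44 ± 0.10 (0.00312), and CTNNB1, the beta-catenin gene, was at 0.12 ± 0.04 (0.0555). The medians of these lists lay between −0.04 and 0.05.

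By line, MOLM-14 had 4 of the 11 later G1 genes lower and 1 higher, 3 of the 10 E2F and pocket genes lower, and 4 of the 13 ligase parts lower and 1 higher, where 7.11% of all genes fell and 7.86% rose. Those lower included CCNE1 (−1.09 ± 0.27, limma, adjusted p = 0.0064), TFDP2 (−0.53 ± 0.11, 9.11e-04), TFDP1 (−0.40 ± 0.08, 0.00133), E2F8 (−0.78 ± 0.21, 0.0116) and CKS1B (−1.03 ± 0.27, 0.00946), and CDKN1A was higher (0.70 ± 0.13, 4.63e-04). In HL-60, 3 of the 11 later G1 genes were higher, where 3.78% of all genes rose. These were CDKN1A (0.45 ± 0.13, 0.0369), the inhibitor gene CDKN1C (0.29 ± 0.08, 0.0138) and the cyclin gene CCNE2 (0.71 ± 0.22, 0.0489), CDKN1C and CCNE2 being named after their values were seen. CCNE2 was lower in MOLM-14, at −1.10 ± 0.22 (8.83e-04). The other counts of these lists and of the regulators, in each of the 4 lines, were 0 or 1 in each direction.

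Of 20 measured E2F-driven genes of DNA replication, 15 fell and 0 rose with GSK3A hairpins over the lines, where 9.72% of all genes fell and 10.4% rose. Their median was −0.28 beside 0.00 over all genes. MCM6 (−0.37 ± 0.05, adjusted p = 2.5e-06), MCM4 (−0.55 ± 0.10, 2.62e-04) and CDC45 (−0.40 ± 0.08, 3.76e-04), parts of the replicative helicase, led the list. All 20 fell in MOLM-14, where the median was −1.02 and 7.11% of all genes fell. None was called in HL-60 (median −0.01), THP-1 (0.02) or U937 (−0.15), and without MOLM-14 none of the 20 was called over the lines (median −0.04). Both hairpins showed it in MOLM-14, with 20 lower and a median of −1.34 for hairpin 5 and 15 lower and a median of −0.71 for hairpin 6. With the plate columns as a block 20 fell in MOLM-14, where 13% of all genes fell under that fit. Within columns 1 to 6 alone 20 were lower in MOLM-14 (median −1.09), and within columns 7 to 11 alone 3 were (median −0.95), with all 20 below 0. The shares of all genes called for single hairpins and within single column parts are not given here, so those counts stand without them. In MOLM-14 CDK4 was the single member called. It fell more there with hairpin 6 than with hairpin 5, the reverse of the order of the replication gene medians. In HL-60 and U937, where CCND2, CDKN2D and RB1 were called, none of the 20 was called without the block. With the block 3 were lower in U937 (7.39% of all genes), and 1 was lower and 2 were higher in HL-60 (10% and 8.96%). Whether changes of the members and of the 20 genes are linked was not tested.

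With GSK3B hairpins, among the same lists only the replication licensing gene CDC6 was called over the lines, at −0.37 ± 0.10 (limma, adjusted p = 0.0494), where 1.64% of all genes rose and 1.45% fell. It fell in a list whose median was −0.05. The members of smallest adjusted p in the other lists were CDKN1A (0.14 ± 0.07, 0.407), E2F3 (0.10 ± 0.03, 0.171), CUL4B (−0.10 ± 0.03, 0.142) and STAT5B (−0.09 ± 0.05, 0.499).

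Genes whose pattern over the 44 arrays was most like that of a member, once each line's mean was taken off, were found by Pearson correlation among 6081 genes above the median level. CCND3 was most like SH3BGRL3 (r = 0.883), RAB4B (0.848) and LGALS1 (0.847), and CCND2 like EIF3J (0.858), DLST (0.811) and MDN1 (0.771). CDK4 went with PAICS (0.859), VDAC1 (0.838) and SRM (0.779), and RB1 with FZD1 (0.730), HIF1A (0.686) and PBX3 (0.685). CDKN2D went with PLSCR1 (0.789), SMCO4 (0.784) and AP1S2 (0.780), and CDKN1B with CTBS (0.826), SMAD4 (0.772) and RBL2 (0.761). CDK6 was most like DACH1 (0.668), SMARCC1 (0.607) and DCAF16 (0.590), and CCND1 like CHSY1 (0.697), RPP25 (0.672) and PSMA4 (0.659). The arrays share hairpins, lines and plate columns, so these values describe likeness over 44 arrays and are not tested.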

How the data were processed

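Intensity values of 22277 probe sets on a linear scale were deposited for 44 one-colour Affymetrix arrays. RMA and MAS5 are both named in the submitters' processing notes. Which of them gave the intensities, and with what settings, is not given in the sources used here. Intensities were turned into log2(value + 16) and, because array medians spanned 0.154, quantile-normalized. Means of the 20 groups (line and hairpin) were fitted over 22215 non-control probe sets with limma 3.58.1 in R 4.3.3, with Benjamini-Hochberg adjustment, two-sided, at 0.05. Probe sets naming 1 gene numbered 19724, several genes 568 and none 1923. Per gene, the probe set of highest mean was led with. Pathway genes named are at most the 3 of smallest adjusted p per list and target. The members and lists were chosen with earlier results of these data known. RefSeq tables of GRCh38.p14 gave positions and promoters. The number of arrays limits the precision. Replicate numbers do not pair arrays in every line: same-numbered hairpin and control arrays deviated together with r between −0.08 and 0.14. Arrays of the same plate columns did so with r of 0.60 to 0.81 in MOLM-14 and U937 and −0.11 to 0.18 in the other lines. The main fit has no block, so in MOLM-14 and U937 it carries the shift between plate columns. Controls and hairpins were spread unequally over these columns. With the columns as a block 6154 probe sets were called with GSK3A hairpins over the lines, against 3759. Alternatives were other normalizations and pseudocounts, 1 probe set per gene, no dim probe sets, blocks, single plate-column parts, and leaving out each array or line. Single-hairpin differences, the F-tests without a line and the list counts by columns were added after the data were seen. The fit was tested on simulated data.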

Additional observations from a re-analysis of the deposited data

Results flagged for a closer look

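The change with GSK3A hairpins differed between the 4 lines for 4 of the 8 genes, by a moderated F-test on the difference itself: CDK4 (adjusted p = 0.00317), CDKN2D (0.0186), CCND2 (0.0216) and CCND3 (0.0252). These are 4 of 13 probe sets, against 5.57% of all probe sets. CDK4 changed by −0.35 in MOLM-14 and 0.15 in THP-1. CDKN2D changed by 0.66 in HL-60 and −0.16 in MOLM-14. CCND2 changed by −0.64 in U937 and −0.15 in MOLM-14, and in THP-1 it was too dim for a fall to be read. CCND3 changed by 0.86 in HL-60 and 0.17 in THP-1. Without THP-1 none of the 4 was called (adjusted p = 0.0698 to 0.444), nor was any of them with the hairpin as a random block. CCND3, CCND2 and CDKN2D were each also lost on leaving out certain single arrays. The cause was not tested.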

How the results depend on the processing

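Signal near the array median limits CCND1, CDK6 and CDKN2D, and 2 arrays per hairpin and line limit all. No value called in either of the fits compared changed sign. Uncalled values near 0 did, among them CDKN1B with GSK3A over lines (−0.02 in columns 1 to 6, −0.03 without HL-60 and −0.04 without U937, against 0.04). For hairpin arrays the replicate number follows the plate columns, with replicate 1 in columns 1 to 6 and replicate 2 in columns 7 to 11. Control arrays break this match, their replicates 1 and 2 both lying in columns 1 to 6. A block by replicate number therefore partly repeats the plate-column block, and it gave 1577 probe sets called with GSK3B hairpins over the lines, against 564. Of the pooled counts for GSK3A over lines (3759 probe sets, 5 member genes), the plate-column block gave 6154 probe sets, columns 1 to 6 alone 2021 and 2 genes, columns 7 to 11 alone 59 and 0 genes, the hairpin as a random block 2108 and 3 genes, without HL-60 2243 and 1 gene, and without U937 3 genes. For GSK3B over lines (564, 0 genes) these were 1776 and 2 genes, 24, 4, 45, 176 without HL-60, 342 without THP-1 and 2 genes without U937, and 1 gene each with cyclic loess, without dim probe sets and with the replicate-number block. For GSK3A minus GSK3B (3905, 4 genes) they were 6328, 1294 and 1 gene, 529 and 0 genes, 2467, and 2387 and 2 genes without HL-60. Calls summed over hairpins (9) were 14 with the plate-column block and 3 without HL-60. Calls of GSK3A hairpins within lines (8) were 1 in columns 1 to 6, 0 in columns 7 to 11 and 3 with the random block, and those of GSK3B hairpins (0) were 1 with the plate-column block. Genes with a GSK3A change that differed between lines (4) were 0 with the random block, 1 without HL-60, 0 without THP-1 and 2 without MOLM-14. Leaving out 1 array, GSK3B genes called over the lines ranged from 0 to 1. Without HL-60 the calls of CDK4 (−0.10, adjusted p = 0.123), CDKN2D (0.14, 0.398) and RB1 (0.11, 0.0696) with GSK3A were lost, and without U937 those of CDK4 (0.0609) and CDKN2D (0.19, 0.117). With the random block CDK4 (0.354) and CDKN2D (0.0551) were lost, and CCND3 lost its GSK3A minus GSK3B call (0.375). The cause was not tested.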
